A study of Mus musculus castaneus and Mus musculus domesticus with 13 samples.

Results

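Lncenc1, a long noncoding RNA of naive embryonic stem cells, and 8 pluripotency-associated transcripts (Platr3, Platr4, Platr10, Platr14, Platr20, Platr22, Platr25 and Platr27) were followed here, 9 of 21706 genes in the count table. They were selected by gene symbol with earlier results of the same libraries known. Lncenc1 was selected because its reads were nearly missing in nuclear transfer lines of 2 wild-derived strains, and the Platr genes were selected to be set beside it. Therefore, the level of Lncenc1 in these strains relative to the laboratory strain is a description and carries no test. All 9 genes had a row in the table, and all 9 passed the filter on low counts in each comparison.

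RNA was sequenced in 13 libraries, each from 1 cell line or culture. Of these, 10 were nuclear transfer embryonic stem cell (ntESC) lines, which were derived by somatic cell nuclear transfer (SCNT) of blood leukocyte nuclei into enucleated B6D2F1 oocytes. Donors were mice of the laboratory hybrid B6D2F1 (C57BL/6NCrSlc crossed with DBA/2CrSlc; lines #M3 and #F2), of CAST/Ei (CAST; #M2, #M8, #F1 and #F2) or of CASP/1Nga (CASP; #M3, #M5, #F4 and #F6), the letters M and F marking male and female lines. CAST and CASP belong to Mus musculus castaneus, and the study asked whether such wild-derived strains can be preserved as ntESC lines. The other libraries came from 1 wild-type B6D2F1 ESC line, 1 wild-type culture of B6D2F1 embryonic fibroblasts (MEF) and 1 wild-type culture of CAST fibroblasts, from the tail tip (TTF). The ntESC lines were grown in 2i/LIF medium on mitomycin C-treated MEF feeders of C57BL/6NCrSlc mice, which were removed on gelatin before RNA extraction. Each library is 1 line, and the labels give no sex for the last 3 libraries.

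The libraries held 33395162 to 49968894 counts. Levels are given in CPM, the counts of a gene relative to the TMM-scaled total of its library, as mean ± SD, and a gene with 3 counts is at 0.0573 to 0.0926 CPM, depending on the library. The summed level of 6 pluripotent cell markers was 2351 to 4056 CPM over the 10 ntESC lines and 2475 CPM for the ESC library, against 18.4 CPM in MEF and 0.342 CPM in TTF. Single markers within this sum differed between strains in either direction. Mean Tdgf1 was 667 CPM in B6D2F1, 94.8 CPM in CAST and 663 CPM in CASP lines, and mean Zfp42 was 117, 195 and 585 CPM. The summed level of 12 fibroblast and feeder markers was 88.4 to 91.8 CPM in B6D2F1 lines, 103 to 400 CPM in CAST lines and 73.0 to 372 CPM in CASP lines, against 11688 CPM in MEF and 6664 CPM in TTF. In bulk RNA, fewer cells of a type and less RNA per cell cannot be told apart. In CASP #F6, the genes of chromosome 2 stood higher than in the other CASP lines by a median of 0.50 on the log2 scale, which bears on Platr3, Platr14 and Platr27.

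Long noncoding RNAs are transcripts that are spliced and often polyadenylated like messenger RNA but carry no long open reading frame. In mouse ESCs, Lncenc1 is known to bind the RNA-binding proteins Ptbp1 and Hnrnpk and to be needed for the expression of glycolysis genes and for self-renewal. The Platr genes were named as a catalogue of transcripts that are present in mouse ESCs and decline during differentiation, and most have no established function.

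Lncenc1 (ENSMUSG00000078952) lies on the plus strand at chr13:97434970-97497007 of GRCm38 and is annotated as a lincRNA, that is, a long intergenic noncoding RNA, with 3 transcripts. Its exons cover 3301 bases of a span of 62038 bases. The junction of the 2 exons of its representative transcript and the last 60 bases are shown because reads must map to this RNA to be counted. In the junction the second exon is in capitals, with the flanks at chr13:97435063-97435092 and chr13:97494405-97494434. In the transcript end, at chr13:97496948-97497007, the polyadenylation hexamer AATAAA is in capitals.
Lncenc1-201 exon junction: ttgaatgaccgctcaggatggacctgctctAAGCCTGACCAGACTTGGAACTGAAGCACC
Lncenc1-201 last bases: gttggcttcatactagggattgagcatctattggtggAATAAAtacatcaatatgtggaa

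Lncenc1 was among the most abundant noncoding RNAs of the B6D2F1 lines and was nearly absent from the castaneus lines. It had 3898 counts in B6D2F1 #F2 and 3964 counts in B6D2F1 #M3. In CAST it had 0 counts in #M2, 4 in #M8, 0 in #F1 and 6 in #F2. In CASP it had 17 counts in #M3, 23 in #M5, 21 in #F4 and 4 in #F6. All 8 castaneus lines were thus far below both B6D2F1 lines, and the strains did not overlap. The mean level was 105 ± 3.81 CPM in B6D2F1 (n = 2), 0.0530 ± 0.0639 CPM in CAST (n = 4) and 0.455 ± 0.232 CPM in CASP (n = 4). With the CAST libraries at 0 set to 3 counts, the B6D2F1 mean exceeded that of CAST at least 1154-fold. In CASP, with 65 counts over 4 libraries, the mean was 0.433% of that in B6D2F1, or 231-fold lower. The fitted log2 fold change in CAST, which rests on 10 counts over 4 libraries, was -10.78 with all lines and -11.68 without CAST #F2.

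**Figure D1:**
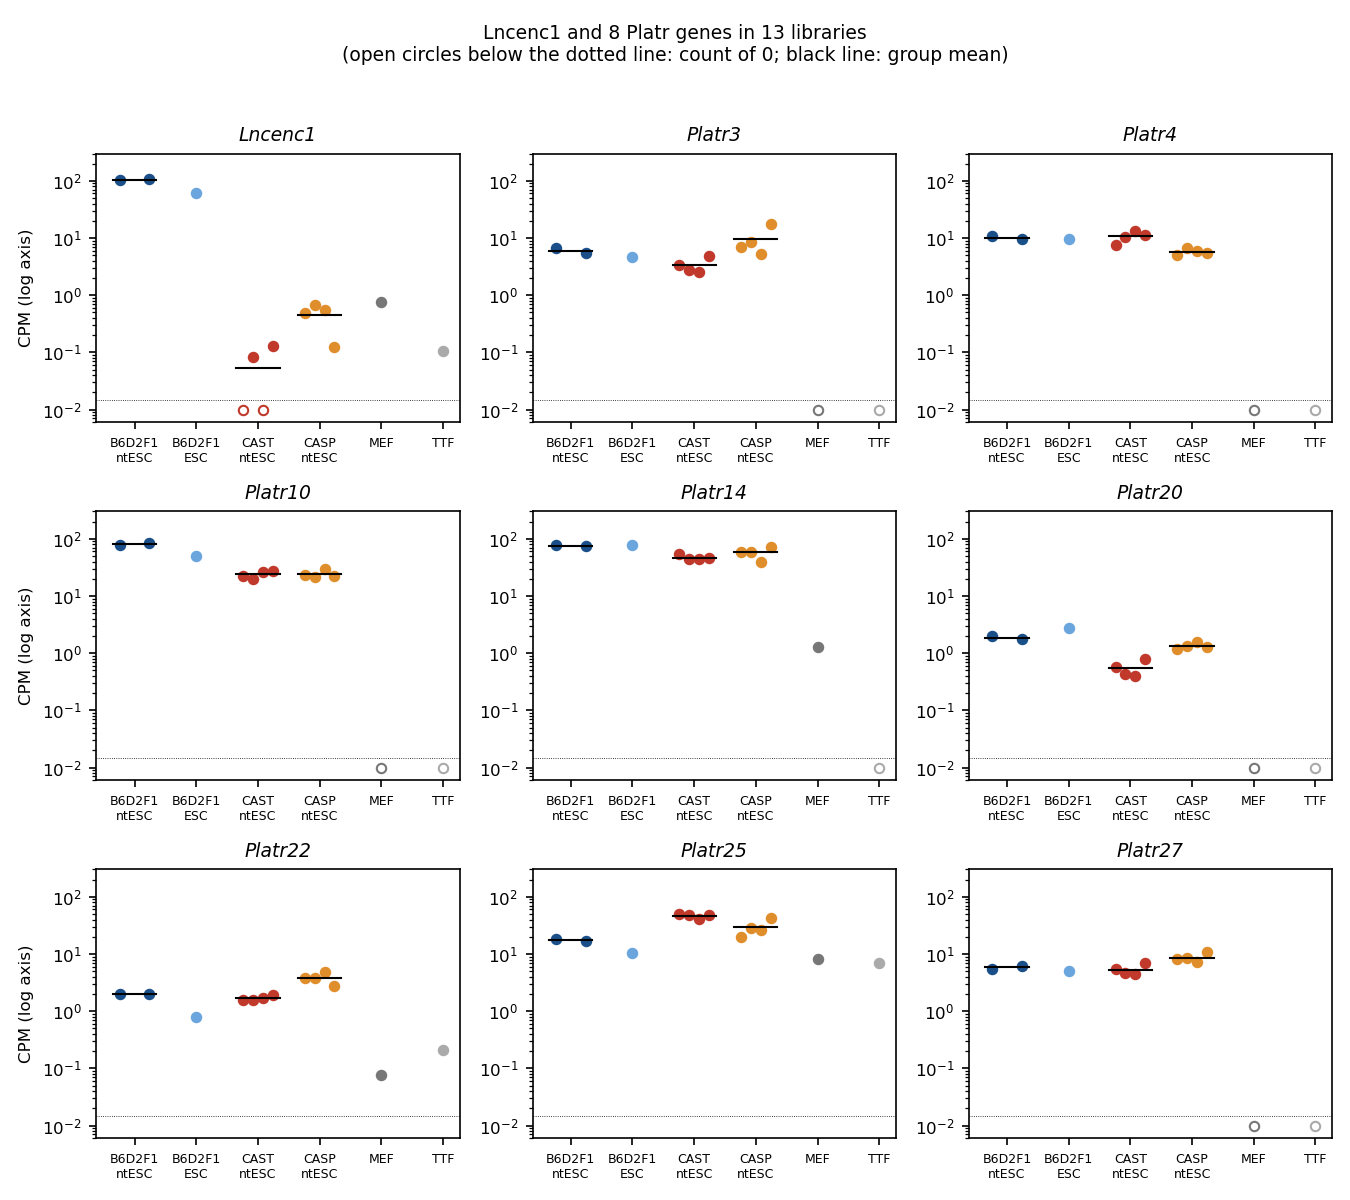
Level of each gene in the 13 libraries in CPM on a log axis, with 1 point for each line or culture, a black line for the mean of the ntESC groups and open circles for a count of 0. Lncenc1 stood at 102 and 108 CPM in the B6D2F1 lines and at no more than 0.661 CPM in the 8 castaneus lines, whereas the 8 Platr genes were present in all 10 ntESC lines.

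The residual level of Lncenc1 differed between the castaneus strains. It was higher in CASP than in CAST by 2.92 on the log2 scale (SE 0.66, edgeR adjusted p = 0.00747). CASP #F6, at 0.124 CPM, lay just below CAST #F2, at 0.129 CPM, so the 2 groups overlapped. Across the other settings and line subsets tried, this difference ranged from 1.81 to 3.81 and passed the threshold each time. The CAST lines were close to the limit of 3 counts, so the size of this difference is known only roughly.

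In order of level, Lncenc1 was highest in B6D2F1 ntESC lines, followed by the B6D2F1 ESC library with 2684 counts and 60.2 CPM, or 57.3% of the ntESC mean. MEF followed at 0.764 CPM (40 counts), then CASP ntESC lines, TTF at 0.105 CPM (4 counts) and CAST ntESC lines. MEF lay above the highest CASP line, at 0.661 CPM, by less than the SD of the CASP lines, and TTF lay within the range of the CAST lines. Between all 10 ntESC lines and the 2 fibroblast libraries, the difference of Lncenc1 was 5.52 on the log2 scale and did not pass (SE 3.95, edgeR adjusted p = 0.255). This value ranged from -0.74 to 7.56 over the other settings and subsets.

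Compared per kb of exon, the loss of Lncenc1 changed its rank among noncoding RNAs. Among 1877 lincRNA, processed transcript and antisense rows, Lncenc1 ranked 18 in B6D2F1 at 31.8 CPM per kb. It ranked 1663 in CAST at 0.0160 CPM per kb and 1193 in CASP at 0.138 CPM per kb. Platr10 and Platr14 ranked 12 and 9 in B6D2F1 and still ranked 37 and 23 in CAST and 46 and 18 in CASP.

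The level of Lncenc1 was then set beside those of other noncoding RNAs. Of 177 noncoding rows with at least 5 CPM in B6D2F1 lines, 4 were below 1% of their B6D2F1 level in both CAST and CASP: Lncenc1, 4930566F21Rik, E330020D12Rik and Gm44206, and the last 3 are named after their values were seen. These 3 stood at 13, 8.44 and 5.14 CPM in B6D2F1. Just outside this limit, Gm42047 stood at 399 CPM in B6D2F1, above Lncenc1, and had 0.823% of this level in CAST and 1.72% in CASP. The median noncoding row of this class kept 75.6% of its B6D2F1 level in CAST and 98.2% in CASP. None of the 5 members of this class other than Lncenc1 was below 29.6% in CAST, and in both strains the lowest of them was Platr10.

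**Figure D2:**
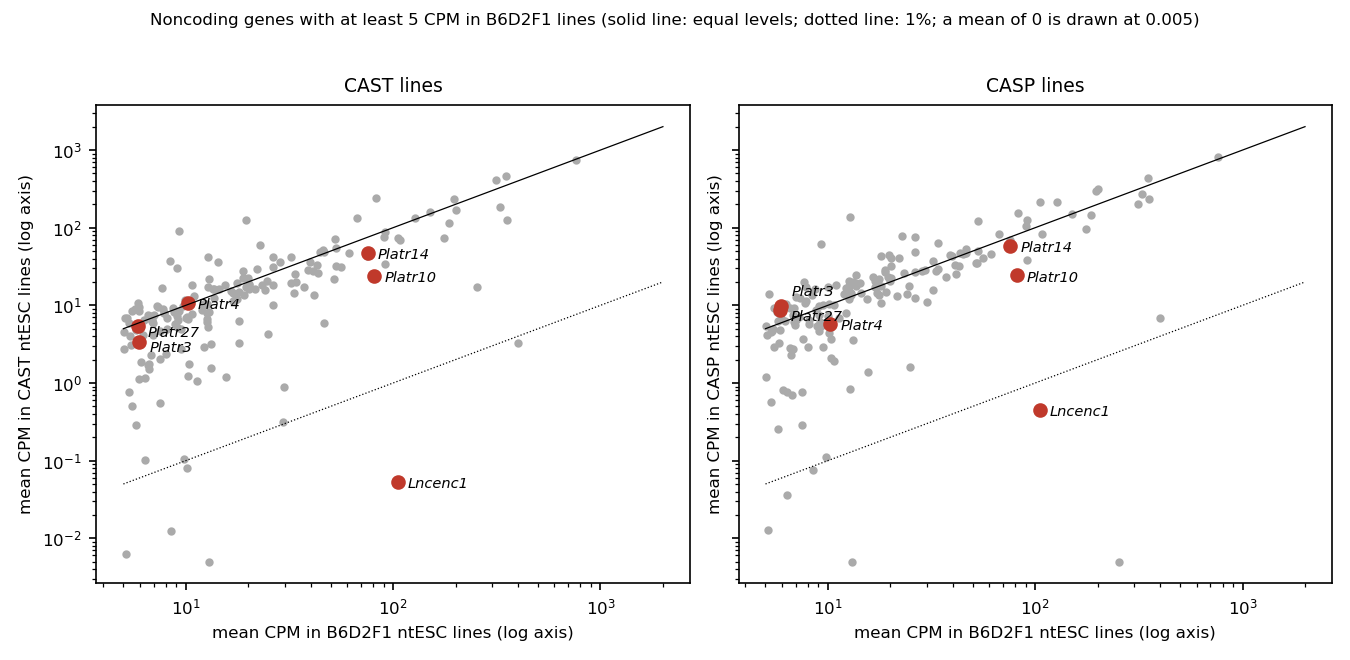
Mean CPM of 177 noncoding genes in CAST (left) and CASP (right) ntESC lines against their mean in B6D2F1 ntESC lines, both on log axes, with members in red, a solid line at equal levels and a dotted line at 1%. Lncenc1 lies below the dotted line in both strains at 105 CPM in B6D2F1, whereas Platr3, Platr4, Platr10, Platr14 and Platr27 lie near the bulk of points.

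The genes next to Lncenc1 were examined in the same lines. Gm2379, a lincRNA 14.2 kb beyond the end of Lncenc1 on the same strand, had 62 and 87 counts in B6D2F1 #F2 and #M3 and 84 counts in the ESC library. It had 0 counts in all 8 castaneus lines, in MEF and in TTF. Taking 3 counts in a library as the lowest detectable level, the B6D2F1 mean of 2.00 CPM was at least 25.9-fold higher than in CAST and at least 21.6-fold higher than in CASP. Gm8756, a processed pseudogene on the opposite strand within the Lncenc1 span that shares no exon with it, stood at 1.49 ± 0.471 CPM in B6D2F1, 0.0687 ± 0.0150 CPM in CAST and 0.330 ± 0.154 CPM in CASP. On the log2 scale it fell by 4.34 in CAST and fell by 2.17 in CASP (edgeR adjusted p = 0.000216 and 0.00594). Thus both transcripts nearest to Lncenc1 were lower in the castaneus lines, where it was nearly absent. Gm2379 passed the filter on low counts only through the B6D2F1 lines and could not have come out higher. Its lower level is therefore a description. The strand setting of the counting is not given, so the values of Gm8756, which lies opposite Lncenc1, are uncertain.

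The nearest gene of the table on the other side, Enc1, which encodes a kelch-family actin-binding protein, behaved differently. Enc1 lies 181.9 kb before Lncenc1 and stood at 214 ± 9.09 CPM in B6D2F1, 179 ± 40.9 CPM in CAST and 136 ± 18.5 CPM in CASP. It did not pass in CAST (-0.29 on the log2 scale, SE 0.16, edgeR adjusted p = 0.186) and fell in CASP (-0.69, SE 0.16, adjusted p = 0.00711). Enc1 was also present in fibroblasts, at 204 CPM in MEF and 249 CPM in TTF.

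**Figure D3:**
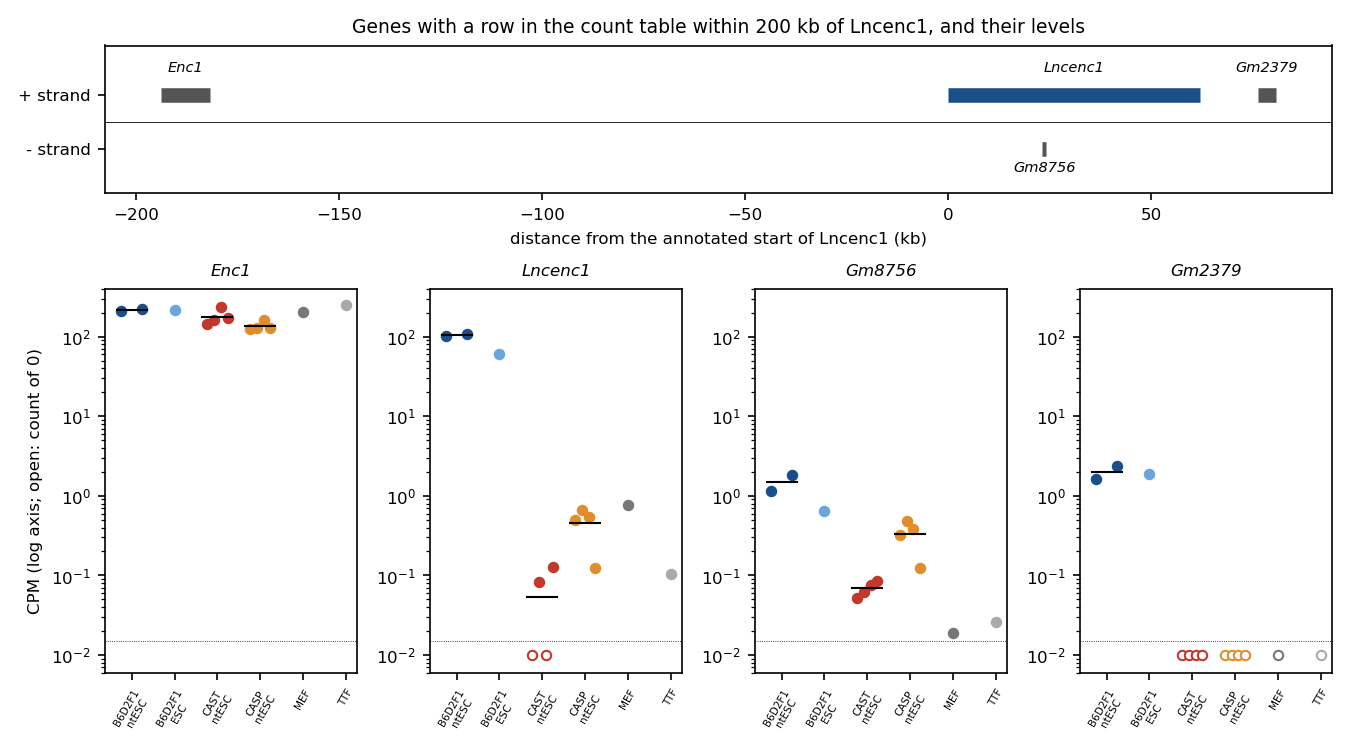
Top, genes with a row in the count table within 200 kb of Lncenc1, drawn to scale by distance in kb from its annotated start and by strand. Bottom, the level of each in CPM on a log axis by group (points are libraries, black lines are means, open circles are counts of 0). Gm2379 is at 0 in all 8 castaneus lines, whereas Enc1 stays at 126 CPM or above in every library.

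By a likeness of pattern over the 13 libraries, the named genes closest to Lncenc1 were Apoc2, Gpa33, C78283, Ccdc7a and Septin1. Likeness was the root mean square difference of log2(CPM + 0.5) after each gene was centred on its own mean. It was 1.23 for Apoc2, an apolipoprotein, and 1.39 for Septin1, a septin cytoskeleton protein, and these 5 genes ranked 4, 5, 7, 8 and 9 of 14514 genes. Closer still were Gm8909, Gm10499 and 4930566F21Rik, at 0.946, 0.967 and 1.09, whose symbols the naming rule left out. C78283 is an accession-like symbol that this rule was meant to leave out as well. Gpa33, a cell surface antigen of the intestinal epithelium, stood at 59.5 ± 13.1 CPM in B6D2F1, 2.39 ± 1.55 CPM in CAST and 1.12 ± 0.120 CPM in CASP. Of the 8 Platr genes, Platr20 was the most alike at 2.49, at percentile 2.56 of all ranked genes from the most alike, followed by Platr10 at 2.77 and percentile 12.3. The highest group means of Platr20 and Platr22 were 2.81 and 3.83 CPM, under the 5 CPM that ranked genes needed. Their percentiles thus set them against genes of higher level. In CASP, Platr20 kept 71.8% of its B6D2F1 level, against 0.433% for Lncenc1. The other 6 ranged from percentile 37.9 (Platr4) to 85.3 (Platr25, at 3.44).

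The 8 Platr genes were tested in CAST against B6D2F1 and in CASP against B6D2F1, comparisons that share the 2 B6D2F1 lines. In CAST, Platr25 rose and Platr10, Platr14 and Platr20 fell, so that 4 of 8 passed, where 32.7% of all genes tested passed (17.4% higher and 15.3% lower). In CASP, Platr22 and Platr25 rose and Platr4 and Platr10 fell, again 4 of 8, where 35.5% of all genes passed (17.9% higher and 17.5% lower). The strains did not overlap for 6 of 8 genes in CAST, where 57.2% of all genes did not overlap (29.4% higher and 27.8% lower). They did not overlap for 7 of 8 genes in CASP, where this held for 53.5% of all genes (27.1% higher and 26.4% lower). The median log2 fold change of the 8 genes was -0.46 in CAST and 0.07 in CASP, against 0.03 and 0.02 over all genes. These shares lay above those of all genes, a difference that was not tested, and both directions occurred in each strain. Of the fibroblast and feeder markers, 3 of 12 rose in CAST and 1 of 12 in CASP, and their part in these values was not tested.

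**Figure D4:**
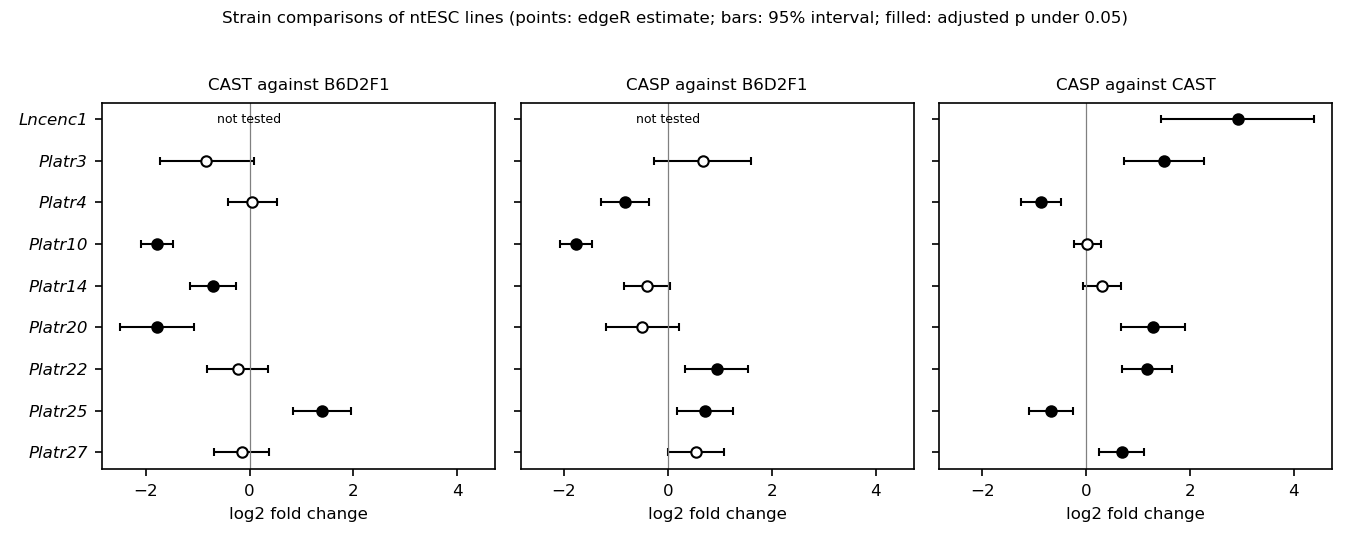
Log2 fold change of each gene between strains of ntESC lines, with points for the edgeR estimate, bars for its 95% interval and filled points for an adjusted p under 0.05. Platr10 is lower by about the same amount in both strains (-1.78 and -1.76), and Lncenc1 is shown only for CASP against CAST, at 2.92.

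Platr10 fell by about the same amount in both castaneus strains. It lies on the minus strand at chr3:75647446-75655731, is annotated as a lincRNA, and its transcript ends, at chr3:75647446-75647505, with the hexamer in capitals.
Platr10-201 last bases: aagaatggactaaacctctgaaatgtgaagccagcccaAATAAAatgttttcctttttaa
Platr10 stood at 79.3 CPM in B6D2F1 #F2 and 83.0 CPM in #M3. It stood at 22.3, 19.9, 26.8 and 26.9 CPM in CAST #M2, #M8, #F1 and #F2, and at 23.5, 21.9, 29.4 and 22.5 CPM in CASP #M3, #M5, #F4 and #F6. Every castaneus line was far below both B6D2F1 lines, with no overlap. Platr10 fell by 1.78 on the log2 scale in CAST (SE 0.14, edgeR adjusted p = 9.19e-06) and by 1.76 in CASP (SE 0.14, adjusted p = 7.69e-06). Between CASP and CAST the difference was 0.02, with a 95% interval from -0.24 to 0.28. Its neighbour Serpini1, the neuroserpin gene 4.0 kb away, did not pass in either strain (0.33 and -0.50, edgeR adjusted p = 0.347 and 0.153).

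Platr20, a lincRNA at chr11:51189833-51220418 on the minus strand, was low in all lines and lowest in CAST. It stood at 2.02 and 1.74 CPM in B6D2F1 #F2 and #M3, at 0.402 to 0.793 CPM in the CAST lines and at 1.19 to 1.60 CPM in the CASP lines. No 2 of these 3 groups overlapped. Platr20 fell in CAST by 1.78 on the log2 scale (SE 0.32, edgeR adjusted p = 0.00209) and did not pass in CASP (-0.49, 95% interval from -1.20 to 0.22). It was higher in CASP than in CAST by 1.29 (SE 0.28, adjusted p = 0.00581). The protein-coding gene Gm12569, which starts 0.1 kb away on the opposite strand, did not pass in CAST (-0.42, edgeR adjusted p = 0.327) or in CASP (0.29, adjusted p = 0.513). The processed pseudogene Gm12203, 14.0 kb away, stood at 0.400 CPM in B6D2F1, 0.0583 CPM in CAST and 0.0518 CPM in CASP. It passed the filter on low counts only through the B6D2F1 lines and could hardly have come out higher. Its lower level in both castaneus strains is therefore a description.

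Platr14 is annotated as a processed transcript at chr2:104559163-104571429 on the plus strand, and depletion of this RNA is known to alter differentiation genes in mouse ESCs. Its transcript ends at chr2:104571370-104571429 with the hexamer in capitals.
Platr14-201 last bases: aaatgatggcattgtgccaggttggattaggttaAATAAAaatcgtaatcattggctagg
Per kb, Platr14 was the highest member in B6D2F1 lines, at 47.7 CPM per kb of exon. It stood at 76.6 and 73.9 CPM in B6D2F1 #F2 and #M3, at 55.0, 43.6, 43.7 and 45.5 CPM in CAST #M2, #M8, #F1 and #F2, and at 58.9, 59.8, 39.6 and 73.2 CPM in CASP #M3, #M5, #F4 and #F6. All castaneus lines were below both B6D2F1 lines, CASP #F6 only just. Platr14 fell in CAST by 0.70 (SE 0.20, edgeR adjusted p = 0.0217), but the call was lost without CAST #M8 (adjusted p = 0.0585), without B6D2F1 #F2 (0.169) and without B6D2F1 #M3 (0.101). It did not pass in CASP (-0.40, adjusted p = 0.149), whereas without CASP #F6 it did (-0.59, adjusted p = 0.0138).

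Platr4, whose RNA is known to act with the transcription factor Tead4 in mouse ESC differentiation, is a lincRNA at chr3:41484024-41493192 on the minus strand. It was lower in CASP than in both other strains. It stood at 10.8 and 9.60 CPM in B6D2F1 #F2 and #M3, at 7.68, 10.5, 13.3 and 11.2 CPM in CAST #M2, #M8, #F1 and #F2, and at 5.04, 6.78, 5.86 and 5.50 CPM in CASP #M3, #M5, #F4 and #F6. All CASP lines were below every line of the other strains. In CAST the difference was 0.05, with a 95% interval from -0.42 to 0.52. Platr4 fell in CASP against B6D2F1 by 0.82 (SE 0.21, edgeR adjusted p = 0.0119) and against CAST by 0.87 (SE 0.18, adjusted p = 0.00411). The first call was lost without either B6D2F1 line (adjusted p = 0.0894 and 0.105), and with CASP #F4 and #F6 both left out the adjusted p was 0.0938 against B6D2F1 and 0.0635 against CAST. The pseudogene Gm6069, on the opposite strand within the Platr4 span with no shared exon, moved the other way in CASP, with a rise of 1.73 on the log2 scale (edgeR adjusted p = 0.00341).

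Platr22 (chr1:136696211-136726142, plus strand) lies between Zfp281, 66.2 kb before it, and Nr5a2, 116.4 kb after it, and its RNA is known to take part in Zfp281 expression in mouse ESCs. It stood at 1.97 and 1.96 CPM in B6D2F1 #F2 and #M3, at 1.56 to 1.93 CPM in the CAST lines, and at 3.77, 3.79, 4.93 and 2.81 CPM in CASP #M3, #M5, #F4 and #F6. All 4 CASP lines were above all lines of the other strains. Platr22 rose in CASP by 0.94 against B6D2F1 (SE 0.27, edgeR adjusted p = 0.0213) and by 1.17 against CAST (SE 0.22, adjusted p = 0.00240). The first call was lost without B6D2F1 #F2 (adjusted p = 0.146) or #M3 (0.108). In CAST the difference was -0.23 (edgeR adjusted p = 0.536).

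The neighbours of Platr22 included genes of either direction. Gm19705, a lincRNA 5.4 kb away and the nearest, fell by 0.91 in CAST and fell by 2.11 in CASP (edgeR adjusted p = 0.00773 and 4.11e-05). Zfp281, a zinc finger factor of the pluripotency network, did not pass in CAST (0.17, edgeR adjusted p = 0.423) or in CASP (0.28, adjusted p = 0.186). Nr5a2, a nuclear receptor of naive pluripotency, stood at 95 ± 12.6 CPM in B6D2F1, 46.0 ± 11.5 CPM in CAST and 130 ± 16.8 CPM in CASP. It fell in CAST by 1.06 (adjusted p = 0.00236), did not pass in CASP against B6D2F1 (0.45, adjusted p = 0.114), and was higher in CASP than in CAST by 1.51 (adjusted p = 0.000105). Another member of the Platr family at this locus, Platr23, rose in CASP by 1.20 (adjusted p = 0.0260).

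Platr3 and Platr27 are lincRNAs of chromosome 2, and both were highest in CASP #F6. Platr3 (chr2:135648907-135652063, plus strand) stood at 6.57 and 5.36 CPM in B6D2F1 #F2 and #M3, at 3.37, 2.81, 2.56 and 4.78 CPM in CAST #M2, #M8, #F1 and #F2, and at 7.10, 8.65, 5.24 and 17.8 CPM in CASP #M3, #M5, #F4 and #F6. CASP #F6 stood apart above all other lines. Platr3 did not pass against B6D2F1 in CAST (-0.83, SE 0.41, edgeR adjusted p = 0.145) or in CASP (0.67, SE 0.42, adjusted p = 0.248), where the difference was 0.21 (adjusted p = 0.631) without CASP #F6. It was higher in CASP than in CAST by 1.5 (SE 0.35, adjusted p = 0.00816), and by 1.04 (adjusted p = 0.0152) without CASP #F6. In CAST, the adjusted p against B6D2F1 was 0.0470 when CASP #F6 was left out of the common estimate of spread.

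Platr27 (chr2:157595583-157597320, minus strand) has the variant hexamer ATTAAA near its end, at chr2:157595583-157595642, here in capitals.
Platr27-201 last bases: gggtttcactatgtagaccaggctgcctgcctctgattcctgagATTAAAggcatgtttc
It stood at 5.46 and 6.25 CPM in B6D2F1 #F2 and #M3, at 4.49 to 6.92 CPM in the CAST lines and at 8.14, 8.39, 7.20 and 10.8 CPM in CASP #M3, #M5, #F4 and #F6. The CASP lines were above all lines of the other strains. Platr27 was higher in CASP than in CAST by 0.69 (SE 0.20, edgeR adjusted p = 0.0227), but by 0.55 (adjusted p = 0.0542) without CASP #F6, and the call was also lost without CAST #M8, CAST #F1 or CASP #M5 (adjusted p = 0.0762, 0.0567 and 0.0567). Against B6D2F1 it did not pass in CAST (-0.15, adjusted p = 0.675) or in CASP (0.54, adjusted p = 0.113). Over all genes tested, 17.5% fell and 17.9% rose in CASP against B6D2F1, and of the 8 neighbours of Platr27 within 200 kb, 5 fell and 2 rose. Among those that fell were Blcap and Nnat, an imprinted pair, by 1.17 and by 2.01 on the log2 scale (edgeR adjusted p = 0.00209 and 0.000463), and those that rose were Ctnnbl1 (0.82, adjusted p = 0.00108) and Gm14287 (1.24, adjusted p = 0.00286).

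The 3 members on chromosome 2 were set beside the shift of that chromosome in CASP #F6. Relative to the other CASP lines, CASP #F6 was higher by 1.31 on the log2 scale for Platr3, by 0.49 for Platr14 and by 0.43 for Platr27, against the median of 0.50 over 930 genes of chromosome 2. In the other CASP lines the median of chromosome 2 was -0.13 to -0.19. The part of the chromosome-wide shift in the values of these 3 genes was not tested beyond leaving the line out.

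**Figure D5:**
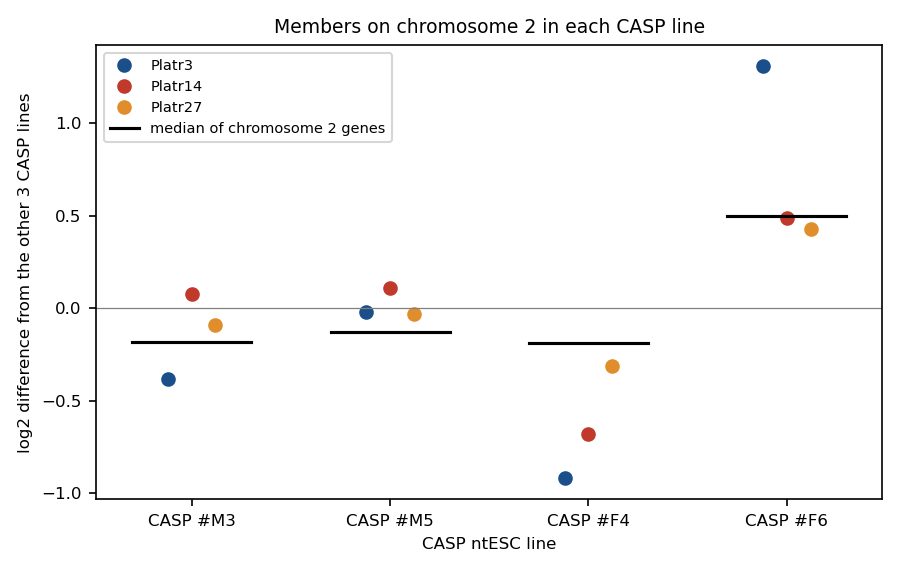
Log2 difference of each CASP line from the mean of the other 3 CASP lines for Platr3, Platr14 and Platr27 (points) and the median of 930 chromosome 2 genes (black lines). In CASP #F6, all 3 genes are above 0 and the chromosome 2 median is 0.50, and Platr3 is highest at 1.31.

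Platr25 differed from the other members in kind. In GENCODE M21 it is a protein-coding gene of 10 transcripts at chr13:62671784-62760709 on the minus strand, although RefSeq lists it as a noncoding miscellaneous RNA, so the label of a noncoding transcript is contradicted by one of the annotations. Its representative transcript holds 6 matches of the consensus that encodes the linker between zinc fingers of the Krüppel type, at intervals of 84 or 252 bases. At least 5 such matches on the same strand occurred in 0.573% of 97308 transcripts, and the other members had none on either strand. Matches 3 to 5 are shown in capitals, at chr13:62700355-62700536 within the coding sequence of 1 of the 10 transcripts.
Platr25-201 linker matches: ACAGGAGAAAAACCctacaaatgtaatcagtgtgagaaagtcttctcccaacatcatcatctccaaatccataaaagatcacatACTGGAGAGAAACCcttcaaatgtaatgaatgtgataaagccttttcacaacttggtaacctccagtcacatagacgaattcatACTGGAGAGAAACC
Of 6841 windows of 100 bases in its transcripts, 49 also occurred in transcripts of 6 other genes, among them Zfp934, Zfp808 and Gm5141, so reads from these could be shared and its level is uncertain to that extent. No such window was shared by the other members.

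Platr25 was the member that rose in both castaneus strains. It stood at 18.2 and 16.9 CPM in B6D2F1 #F2 and #M3, at 49.1, 47.3, 40.5 and 48.3 CPM in CAST #M2, #M8, #F1 and #F2, and at 20.0, 28.2, 26.3 and 42.8 CPM in CASP #M3, #M5, #F4 and #F6. All castaneus lines were above both B6D2F1 lines, and CASP #F6 reached into the CAST range. It rose in CAST by 1.4 (SE 0.25, edgeR adjusted p = 0.00204) and in CASP by 0.71 (SE 0.24, adjusted p = 0.0422). The CASP call was lost when either B6D2F1 line, CASP #M5, or CAST #M2, #M8 or #F2 was left out (adjusted p = 0.0519 to 0.216). It was lower in CASP than in CAST by 0.68 (SE 0.19, adjusted p = 0.0210), a call that was lost without CAST #M2, CAST #M8, CASP #M3, CASP #M5 or CASP #F4 (adjusted p = 0.0508 to 0.0599).

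Of 11 genes within 200 kb of Platr25, 6 rose in both castaneus strains: Zfp934, Gm5141, Fbp1, Fbp2, Gm36298 and Gm7664. Over all genes tested, 17.4% rose in CAST and 17.9% rose in CASP, and the share that rose in both was not computed. Neighbours share a region, and no difference from these shares was tested. Zfp934, 100.6 kb away, stood at 6.96 CPM in B6D2F1, 45.8 CPM in CAST and 63.6 CPM in CASP, and it rose by 2.71 and 3.18 on the log2 scale (edgeR adjusted p = 1.6e-06 and 5.04e-07). Gm5141, 11.5 kb away, rose by 0.94 and 1.15 (adjusted p = 0.0333 and 0.0132). Fbp2, a fructose-bisphosphatase gene of gluconeogenesis like Fbp1, stood at 0.535 CPM in B6D2F1. It rose in CAST by 2.42 and in CASP by 3.07 (edgeR adjusted p = 0.000667 and 0.000143). Fbp1 stood at 0.161 CPM in B6D2F1, 1.28 CPM in CAST and 2.76 CPM in CASP, and Gm36298 stood at 0.341, 4.02 and 8.96 CPM. Both passed the filter on low counts only through the castaneus lines and could hardly have come out lower. Their higher level there is therefore a description. The pseudogene Gm7045, 0.9 kb away and the nearest without overlap, did not pass in CAST (-0.63, edgeR adjusted p = 0.156) and fell by 1.18 in CASP (adjusted p = 0.0160). The zinc finger gene Zfp935 did not pass (5.76 and 6.49, adjusted p = 0.100 and 0.0643). 6720489N17Rik, 47.6 kb away, did not pass in either strain (0.18 and -0.09, edgeR adjusted p = 0.633 and 0.815).

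Between CASP and CAST, 7 of 9 members passed, 5 higher in CASP and 2 lower, where 31.6% of all genes tested passed (15.2% higher and 16.4% lower). Lncenc1, Platr3, Platr20, Platr22 and Platr27 were higher in CASP, and Platr4 and Platr25 were lower. The strains did not overlap for 5 of 9 members, where 31.6% of all genes did not overlap (15.5% higher and 16.2% lower). The median difference of the 9 genes was 0.69 on the log2 scale, against -0.02 over all genes. Platr14 did not pass (0.30, 95% interval from -0.07 to 0.67), but passed without CASP #F4 (0.46, edgeR adjusted p = 0.0177).

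Between the 5 female and 5 male ntESC lines, 0 of 9 members passed in edgeR, where 0.0494% of all genes passed (0.00494% higher and 0.0445% lower in females). The sexes overlapped for all 9 members, and 0.307% of all genes did not overlap (0.133% higher and 0.173% lower). At an unadjusted p under 0.05 the count was also 0 of 9, and DESeq2 called 0. The largest difference was 0.37 on the log2 scale for Platr3, with a 95% interval from -0.30 to 1.05. The sex difference of CAST and CASP lines was also compared by an interaction term, and 0 of 9 members passed, where 0.0198% of all genes passed.

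The members were next compared with fibroblasts, where 8 of 9 passed and all 8 were higher in ntESC lines, where 51.8% of all genes passed (23.6% higher and 28.2% lower). These 8 also did not overlap between ntESC lines and fibroblasts, which held for 44.1% of all genes (23.6% higher and 20.6% lower). The 2 fibroblast libraries differ in strain and tissue, so they were 1 group of 2. Platr3, Platr4, Platr10, Platr20 and Platr27 had 0 counts in both fibroblast libraries, as did 5.42% of all genes tested. These 5 entered the test only through their reads in ntESC lines and could not have come out lower, so the count of 8 is a description. With 3 counts per library as the floor, the ntESC mean was at least 450-fold higher for Platr10, 109-fold for Platr4, 85.7-fold for Platr27, 81.3-fold for Platr3 and 14.4-fold for Platr20.

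The other 3 Platr genes had fibroblast reads. Platr14 had 66 counts in MEF (1.26 CPM) and 0 in TTF, and was higher in ntESC lines by 6.40 on the log2 scale (SE 1.01). Platr22 had 4 counts in MEF and 8 in TTF, where the ntESC lines had 61 to 191 counts (4.12, SE 0.73). Both needed their reads in ntESC lines to pass the filter on low counts, and Platr22 could hardly have come out lower. Their differences are therefore descriptions. Platr25 stood at 8.31 CPM in MEF and 6.90 CPM in TTF, where the ntESC lines spanned 16.9 to 49.1 CPM (2.1, SE 0.49, edgeR adjusted p = 0.00303). Platr25 was thus clearly expressed in both fibroblast cultures, unlike the others.

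The ESC library was placed beside the B6D2F1 ntESC lines without a test. It lay below both lines for 7 of 9 members (39.8% of all genes) and above both for 2, Platr14 and Platr20 (44.4% of all genes). Platr10 stood at 50.1 CPM or 61.8% of the ntESC mean, Platr25 at 59.7%, and Platr22 at 0.785 CPM or 40.0%. Platr20 stood at 2.81 CPM or 149%. Platr14, at 79.0 CPM, and Platr4, at 9.58 CPM, lay close to the ntESC lines at 105% and 94.1%.

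As for the rest of the catalogue, 17 other Platr genes were in the table. In CAST 4 rose and 5 fell, where 17.4% of all genes tested rose and 15.3% fell. In CASP 5 rose and 3 fell, where 17.9% of all genes rose and 17.5% fell. The median log2 fold changes of the 17 were 0.01 and -0.50. Platr26 stood at 2.27 ± 0.0958 CPM in B6D2F1, 0.0838 ± 0.110 CPM in CAST and 0.317 ± 0.108 CPM in CASP, and it fell by 5.03 and 2.95 on the log2 scale (edgeR adjusted p = 0.000939 and 0.00831). In contrast, Platr15 stood at 4.26 ± 0.369 CPM in B6D2F1 and rose to 84.6 ± 6.06 CPM in CAST and 30.2 ± 7.56 CPM in CASP (4.30 and 2.81, adjusted p = 1.06e-06 and 1.06e-05). Platr9 rose by 3.13 and Platr7 fell by 3.07 in CASP (adjusted p = 0.000377 and 0.000266). Of the 17, 16 were higher in ntESC lines than in fibroblasts, as were 23.6% of all genes. Of the 17, 13, which could only be higher, had 0 counts in both fibroblast libraries, as did 5.42% of all genes tested. The others, Platr8, Platr12, Platr15 and Platr23, stood at no more than 0.0955 CPM in either fibroblast library. They passed the filter on low counts only through the ntESC lines and could hardly have come out lower. The count of 16 is therefore a description.

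Other noncoding RNAs listed for ESCs moved in both directions. Of 11 listed ESC noncoding RNAs in the table, 1 rose and 2 fell in CAST, and 2 rose and 4 fell in CASP. Over all genes tested, 17.4% rose and 15.3% fell in CAST, and 17.9% rose and 17.5% fell in CASP. Not all of the 11 marked ESCs here. Against fibroblasts, 4 were higher in ntESC lines and 3 lower, where 23.6% of all genes were higher and 28.2% lower. The 3 lower ones, Miat, Evx1os and Lncpint, had means of at most 0.516 CPM in the ntESC groups. Firre, an X-linked nuclear RNA, fell in CAST by 1.46 (edgeR adjusted p = 5.01e-05), and Eprn, an ESC noncoding RNA, rose by 1.30 (adjusted p = 0.000485). In CASP, Sox2ot, which spans the Sox2 gene, rose by 1.73 (adjusted p = 0.00126), and Tunar, a conserved neural and ESC RNA, fell by 1.30 (adjusted p = 0.00829). Of 21 broadly expressed noncoding RNAs, 2 rose and 9 fell in CAST and 2 rose and 4 fell in CASP, beside the same shares of all genes. Among these, Gas5, a host of small nucleolar RNAs, fell by 1.52 in CAST (edgeR adjusted p = 4.42e-05), and Snhg5, another such host, rose in CASP by 1.18 (adjusted p = 0.00197). Jpx, an activator of Xist, stood at 0.174 CPM in B6D2F1, 1.65 CPM in CAST and 0.623 CPM in CASP. It passed the filter on low counts only through the castaneus lines and could hardly have come out lower. Its higher level there, counted above as a rise in both strains, is therefore a description.

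The genes tied to Lncenc1 by its known role were examined last. Ptbp1 had a mean of 927 CPM in B6D2F1, of 816 CPM in CAST and of 896 CPM in CASP, and did not pass in either castaneus strain (-0.20 and -0.07, edgeR adjusted p = 0.0752 and 0.538). Hnrnpk did not pass either (-0.03 and 0.18, adjusted p = 0.824 and 0.116). Of 23 glycolysis genes, 2 rose and 10 fell in CAST, where 17.4% of all genes tested rose and 15.3% fell. In CASP 0 rose and 6 fell, where 17.9% of all genes rose and 17.5% fell. The medians were -0.06 and -0.02 on the log2 scale against 0.03 and 0.02 over all genes. No difference from all genes was tested. Gapdh, a glycolytic dehydrogenase whose reads could be shared with its many processed pseudogenes, fell by 2.55 and 3.97 (adjusted p = 5.77e-08 and 4.18e-09). Pfkp, a phosphofructokinase, fell in CASP by 2.05 (adjusted p = 2.14e-06), and Eno2, an enolase, rose in CAST by 2.24 (adjusted p = 0.0136). Of 16 naive and core pluripotency factors, 2 rose and 5 fell in CAST and 5 rose and 3 fell in CASP, beside the same shares of all genes. Dppa3, a maternal factor, rose in CAST by 2.56 (adjusted p = 1.88e-05), Zfp42 (Rex1) rose in CASP by 2.30 (adjusted p = 2.07e-05), and Gbx2, a homeobox factor, fell by 1.82 and 1.63 (adjusted p = 0.00213 and 0.00348).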

How the data were processed

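Poly(A) RNA of 13 libraries was sequenced with stranded, paired-end reads. Per the study's methods and the submitters' processing notes, which also name edgeR, low-quality reads were dropped (fastp 0.22.0), HISAT2 2.2.1 placed the rest on GRCm38, and StringTie 2.1.7 gave the quantities. The deposited table holds whole counts per gene for 21706 genes, which the authors left unnormalized. A second deposited table holds log2 values that the authors normalized with DESeq2 (from the values, the logarithm of count over size factor plus 4), and it was used for 1 alternative only. Castaneus reads were aligned to the reference of a laboratory strain, so reads that differ from it can be lost, and the part of this in strain differences was not tested. The strand setting of the counting and the annotation release are not given in the sources used here, so values of overlapping genes on opposite strands are uncertain. The table had 0 sample columns without a match to the labels.

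Gene positions, types and sequences come from GENCODE M21 (GRCm38), which holds 21664 of the IDs, and gene classes in RefSeq (GRCm38.p6) were also read. CPM were computed with TMM factors of all 13 libraries. Differences were tested with the edgeR 4.0.16 quasi-likelihood test on R 4.3.3 after filterByExpr, with Benjamini-Hochberg adjustment over all genes tested and a threshold of 0.05. Strain comparisons used the 10 ntESC lines in one fit with sex as a covariate, the sexes were compared with strain as a covariate, and the ESC library entered no test. P-values reflect the spread between lines. The test was also run on simulated data, and the outcome is not reported here. The 9 members and the gene lists were chosen with earlier results of these data known. Beyond the members, the rule names up to 2 genes of largest change per list and strain and the nearest neighbour within 200 kb on each side. It also names the 5 genes most like Lncenc1 with at least 5 CPM in a group. Gm, Rik and accession-like symbols were to be left out there, but C78283 passed. Not every nearest neighbour is described. Farther neighbours, such as Zfp934, Fbp1, Fbp2, Zfp935, Zfp281, Nr5a2, Platr23, Nnat and Gm14287, were named with their values known. Where a symbol had several rows, the row of most counts was used. Alternatives were RLE factors, library size only, no filter, DESeq2 1.42.0, limma-trend 3.58.1 on the authors' log2 values, no covariate, CASP #F4 and #F6 left out together, and each library left out in turn. A zinc finger linker consensus was searched on both strands and polyadenylation hexamers on the sense strand. No 2 libraries of a group agreed within sampling noise.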

Additional observations from a re-analysis of the deposited data

Results flagged for a closer look

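The level of Platr14 in CAST #M2, 55.0 CPM, stood apart from the other CAST lines. The nearest CAST line was at 45.5 CPM and the lowest at 43.6 CPM, so this gap was 0.836 of the range of the 4 lines, above Dixon's critical value for a group of 4. A total of 18 sets of 4 lines were examined in this way (9 genes in CAST and in CASP), and chance flags about 1 in 20. Platr14 fell in CAST against B6D2F1 also without CAST #M2 (edgeR adjusted p = 0.0224).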

How the results depend on the processing

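With CASP #F4 and #F6 left out together, the count of Platr genes past the threshold in CASP against B6D2F1 was 2 instead of 4. Leaving out 1 library in turn gave 1 to 5 genes there, 1 without either B6D2F1 line, and 3 to 5 in CAST. Over all genes, the count past the threshold ranged from 2924 (without B6D2F1 #M3) to 7719 in CAST against B6D2F1 (6609 with all lines) and from 3688 (without B6D2F1 #M3) to 7651 in CASP (7172 with all lines); it was 3269 and 3789 without B6D2F1 #F2. With 1 B6D2F1 line left, its spread is taken to be that of the other strains. Between females and males, DESeq2 called 96 genes and edgeR 10, with 0 members in either. For Lncenc1 in CAST against B6D2F1, limma-trend on the authors' log2 values gave -9.49 instead of -10.78 on the log2 scale, where an offset inside the logarithm bounds low values. No direction of a called gene reversed. Platr10, Platr20 and Platr25 in CAST, Platr10 in CASP, and Lncenc1, Platr3, Platr20 and Platr22 between CASP and CAST kept their calls under every alternative run. RLE factors, library size only, no filter and no covariate left each count of members as it was in the strain and sex comparisons. No paired analysis was possible because line numbers name separate lines. Depth limits Lncenc1 in CAST, where no library had more than 6 counts, and only 2 B6D2F1 lines stand behind each comparison with that strain.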

Other observations

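Among the noncoding rows with at least 5 CPM in B6D2F1 lines, 10 of 177 were below 10% of their B6D2F1 level in both castaneus strains. Of the ends of the 9 representative transcripts, 7 hold AATAAA or ATTAAA in the last 50 bases, searched on the sense strand only: AATAAA in Lncenc1, Platr3, Platr10 and Platr14, and ATTAAA in Platr4, Platr25 and Platr27. Either hexamer occurred there in 38.0% of all transcripts and in 46.6% of noncoding transcripts. Within 200 kb of the members, 52 genes had a row in the table, of which 21 passed in CAST against B6D2F1 (32.7% of all genes passed), 28 in CASP against B6D2F1 (35.5%) and 24 in CASP against CAST (31.6%). Neighbours of 1 gene share a region, and the difference from these shares was not tested.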
